A study of Mus musculus with 23 samples.

Results

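The comparison described here is that of colon RNA from wild-type Balb/c mice given repeated rectal TNBS with colon RNA from untreated wild-type Balb/c mice. It was chosen by the sample titles alone and holds 11 of the 23 arrays of the study, 6 with TNBS and 5 untreated, read across 18194 genes. The other 12 arrays come from Balb/c mice lacking Fn14 (Tnfrsf12a), the receptor for the cytokine TWEAK, with 7 arrays under TNBS and 5 untreated. Their values are given only where the wild-type response was set against the knockout response. They also entered the choice of probe set and the shared estimate of spread behind every standard error and p-value. Counts from the 11 wild-type arrays alone are given in the closing section. TNBS (2,4,6-trinitrobenzenesulfonic acid) was given at 0.2% in a mixture of PBS and ethanol over 6 weeks, with the volume per g of mouse raised from 1.0 ul at first to 2.0 ul at the end. Colons were collected on day 3 after the final dose. No allele or transgene was carried by either wild-type group. The labels used here do not say whether the untreated mice received the ethanol vehicle, and they give neither age nor sex. Nor do they state that each array is a separate animal, and the p-values therefore reflect how these arrays, and perhaps not animals, were spread.

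TNBS is a hapten: in ethanol it crosses the mucosal barrier, binds to the host's own proteins and provokes a T cell response against them. A single dose gives an acute transmural colitis, while repeated low doses give a chronic disease in which type 2 responses and fibrosis have been described in Balb/c mice. In a type 2 response the cytokines IL-4, IL-5 and IL-13 drive IgE, mast cells, eosinophils and alternatively activated macrophages, and change the goblet cells and the secreted products of the epithelium.

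The largest rises were in genes of mast cells, the granulated cells that carry IgE on their surface. Mcpt1 and Mcpt2 encode mucosal mast cell chymases, Mcpt4 a chymase of connective tissue mast cells, Cpa3 the granule carboxypeptidase, and Fcer1a and Ms4a2 the alpha and beta chains of the high-affinity IgE receptor. The stretches below lie just before the RefSeq start of 5 of these genes (build GRCm38.p6) and are shown because GATA factors, among them Gata2, are known regulators of mast cell genes and the letters of a GATA element recur in them. Each is written 5′ to 3′ on the gene's own strand, and capitals mark AGATAA or TGATAA on either strand. The stretch of Fcer1a is at chr1:173227292-173227345, minus strand, and that of Cpa3 at chr3:20242198-20242251, minus strand. Ms4a2 is shown at chr19:11623720-11623780, minus strand. The chymase genes lie near each other, with Mcpt1 at chr14:56017841-56017894, plus strand and Mcpt4 at chr14:56062384-56062437, minus strand.
Fcer1a: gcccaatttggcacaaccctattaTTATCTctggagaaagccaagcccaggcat
Cpa3: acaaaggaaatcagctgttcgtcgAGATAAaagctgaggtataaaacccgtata
Ms4a2: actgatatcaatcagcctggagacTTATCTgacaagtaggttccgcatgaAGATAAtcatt
Mcpt1: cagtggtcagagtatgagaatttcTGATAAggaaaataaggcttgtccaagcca
Mcpt4: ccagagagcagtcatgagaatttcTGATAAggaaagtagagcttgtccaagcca

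The match nearest to the start began 92 bases before it in Fcer1a, 46 in Cpa3, 11 in Ms4a2, 99 in Mcpt1 and 103 in Mcpt4. Of the 14 mast cell genes measured, 11 had a RefSeq promoter entry, and 6 of these held AGATAA or TGATAA in the 250 bases before the start. The same letters were found in 16.6% of all 32851 windows of that length. A gene counted if any of its windows held the letters, whereas that share is of single windows, so the figures are not on equal terms. The windows of Mcpt1 and Mcpt4 are related sequences, with 208 identical positions, 38 mismatches and 8 gaps when aligned over the 250 bases, so their matches are not independent. A match of letters is a description and not a binding site.

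Depth has no meaning for these arrays, and their number limits the precision. Values are log2 signals as deposited. The lowest value in the table is 2.17, at which 21.2% of the wild-type values stood, and a gene there was not measured above background. The arrays resembled each other: correlations over genes ran from 0.995 to 0.998 among untreated arrays, from 0.991 to 0.997 among TNBS arrays and from 0.983 to 0.993 between the groups. Principal component 1 accounted for 53.7% of the variance, and the untreated arrays (-37.2 to -26.7) lay apart from the TNBS arrays (6.34 to 41.0). Colon identity was borne out on every array: the epithelial genes Krt20 (12.46, 12.40, 12.78, 12.64 and 12.55 untreated; 12.38 to 12.80 (median 12.61) under TNBS), Cdh17 and Muc2 were bright throughout.

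Genes of other tissues were bright on some arrays. Acinar enzymes of the pancreas (Ctrb1, Cpa1 and Prss2 among 10 measured) averaged 3.01 to 3.18 on the untreated arrays but 7.83 on TNBS array 3 and 10.27 on TNBS array 6, against 3.04 to 3.09 on the other TNBS arrays. The squamous epithelium list, which marks the lining of the anal canal, averaged 5.75, 4.49, 4.40, 5.66 and 5.77 on untreated arrays 1 to 5 and 5.94, 6.25, 8.32, 8.47, 7.26 and 8.30 on TNBS arrays 1 to 6. Skeletal muscle genes averaged 3.10 to 4.70 on untreated arrays and 3.15 to 6.54 under TNBS, with TNBS array 4 the highest. Absorptive genes of the small intestine were raised on untreated arrays 4 and 5, where Apoa1 read 6.60 and 10.38 against 2.23 to 2.60 on the other untreated arrays. The calls and list counts that shift when these arrays are left out are gathered after the list results.

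TNBS raised 1858 genes, 10.2% of the 18194 tested, and lowered 1140, which is 6.27%, at an adjusted p under 0.05 (limma, Benjamini-Hochberg). A change is written as the TNBS mean minus the untreated mean in log2 units, ± its standard error. Rises were the larger changes, since 447 genes rose by at least 1 but only 39 fell by as much, and 44 rose by at least 3. The median rise was 0.57 and the median fall 0.32 below untreated. Genes that rose started lower, at a median untreated level of 7.30, while those that fell started at 9.66. Every TNBS array stood above every untreated array for 1271 genes (6.99%) and below for 574 (3.15%). The excess of rises depended on scaling: rises were 62.0% of the called genes as deposited, 38.3% after quantile normalization, 43.4% after centring on the array median over probe sets and 11.2% after centring on the median over genes. The last shifts every gene by -0.17. With TNBS arrays 3, 4 and 6 left out 1008 genes rose and 476 fell, with untreated arrays 1 and 2 left out 1146 rose and 576 fell, and with the squamous list mean as a covariate 793 rose and 374 fell. Leaving out TNBS arrays 3 and 6 alone gave 1341 and 622. None of the called genes named here changed direction under the alternatives tried. Where a list below had 0 rises or 0 falls by limma, between 0 and 4 of its members passed an unadjusted p under 0.05 in that direction.

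**Figure D1:**
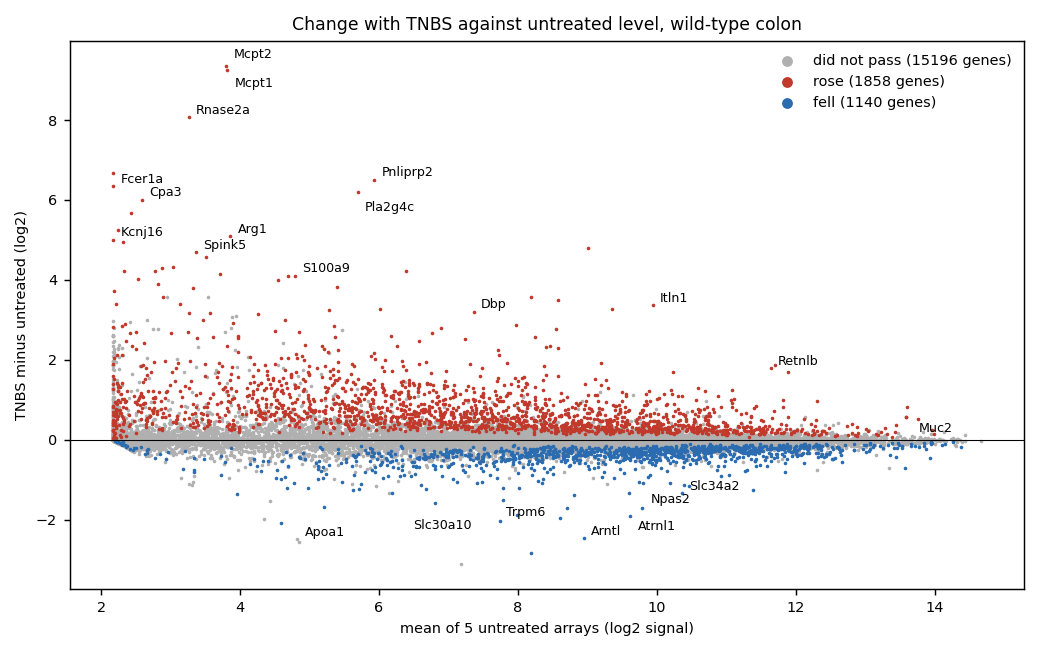
Each point is a gene, with the mean log2 signal of the 5 untreated wild-type arrays on the x axis and the TNBS minus untreated difference (log2) on the y axis; red points rose (1858), blue points fell (1140) and grey points did not pass. Rises reach 9.36 among genes that were dim in untreated colon, while the falls stay above -3 and come mostly from bright genes.

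Mast cell genes had the highest median change of the 50 lists. Their share of rises (78.6%) was below those of the class II (83.3%), cholesterol synthesis (81.2%) and complement (80%) lists. Of 14 measured, 11 rose and 0 fell, with a median change of 3.72 against 0 over all genes. Mcpt1 read 3.80, 3.74, 2.60, 4.88 and 4.05 on the untreated arrays and 12.86 to 13.36 (median 13.01) on the TNBS arrays, a rise of 9.24 ± 0.31 (adjusted p = 9.1e-14). Mcpt2 went from 4.06, 3.61, 2.87, 3.69 and 4.78 to 12.95 to 13.37 (median 13.16), a rise of 9.36 ± 0.38 (adjusted p = 1.7e-12). The lowest TNBS array stood far above the highest untreated array for both chymases. Cpa3 read 2.60, 2.73, 2.44, 2.90 and 2.24 untreated and 7.88 to 9.13 (median 8.63) under TNBS (6.00 ± 0.22 (adjusted p = 2.6e-13)). Fcer1a stood at the floor of 2.17 on all 5 untreated arrays and at 8.07 to 9.14 (median 8.49) under TNBS, so its rise of 6.34 ± 0.32 (adjusted p = 5.9e-11) is measured from the floor and is a lower limit. Ms4a2 likewise started at or near the floor, with untreated values of 2.17, 2.17, 2.36, 2.17 and 2.17 and TNBS values of 4.78 to 6.31 (median 5.67) (3.40 ± 0.23 (adjusted p = 7.7e-09)). The chymases and tryptase of connective tissue mast cells rose as well: Mcpt4 by 4.96 (adjusted p = 5.3e-11), Cma1 by 4.32 (adjusted p = 1.5e-07) and Tpsb2 by 4.03 (adjusted p = 4.4e-06). Hdc, which makes histamine, rose by 1.86 (adjusted p = 0.00014), and the transcription factor gene Gata2 by 0.81 (adjusted p = 3.5e-05). Kit, the stem cell factor receptor shared with interstitial cells of Cajal, changed by -0.15 ± 0.12 (adjusted p = 0.462), and Tpsab1 by 0.30 ± 0.21 (adjusted p = 0.408), neither of which passed. Mcpt8, a protease of basophils, was at the floor on every untreated array and between 2.17 and 2.44 under TNBS. In whole colon, more cells of a type and more RNA per cell cannot be told apart, here and in every group below. With TNBS arrays 3, 4 and 6 left out, 11 of the 14 still rose.

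**Figure D2:**
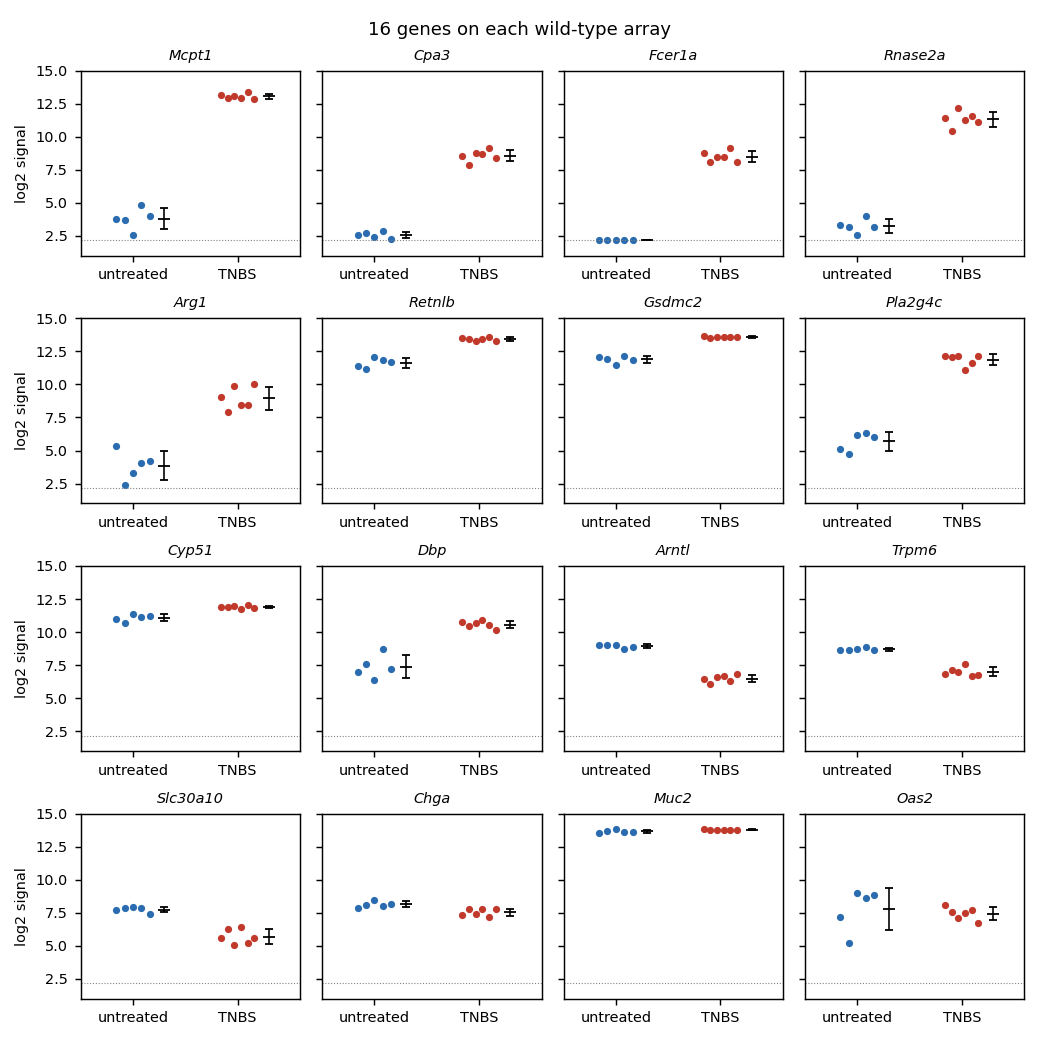
Log2 signal of 16 genes on each of the 5 untreated (blue) and 6 TNBS (red) wild-type arrays, with the mean and SD in black and the floor of 2.17 as a dotted line. The mast cell and eosinophil-associated genes of the top row do not overlap between the groups, Muc2 did not pass, and Oas2 spreads more among untreated than among TNBS arrays.

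Eosinophil-associated genes were split. Rnase2a, a ribonuclease of the eosinophil-associated family, read 3.36, 3.18, 2.58, 4.0 and 3.20 on the untreated arrays and 10.45 to 12.20 (median 11.33) under TNBS, the third largest rise of all (8.07 ± 0.43 (adjusted p = 1.2e-10)). The eotaxin gene Ccl24 rose by 1.60 (adjusted p = 7.6e-07) and Ccl11 by 1.39 (adjusted p = 0.00052), both chemokines that attract eosinophils. Siglecf, a surface lectin of eosinophils that tuft cells also carry, rose by 1.69 (adjusted p = 0.00012), and Alox15, a lipoxygenase, by 2.27 (adjusted p = 1.6e-06). The granule protein genes Prg2, Prg3 and Epx and the eotaxin receptor gene Ccr3, which define the cell, were at or within 0.02 of the floor of 2.17 on all 11 arrays. In all, 5 of 10 measured genes rose and 0 fell. With values below log2 5 set to 5, 3 rose, and Ccl24 and Alox15 did not pass.

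Macrophage genes of the alternatively activated kind rose in 14 of 18 cases with none falling, at a median of 1.32. Arg1, arginase 1, read 5.37, 2.37, 3.29, 4.03 and 4.23 untreated and 7.92 to 10.03 (median 8.74) under TNBS (5.09 ± 0.71 (adjusted p = 5.8e-05)). Chil3, the chitinase-like protein Ym1, stood at 2.17, 2.17, 2.17, 2.17 and 2.17 untreated and ranged from 8.24 to 10.23 (median 8.66) under TNBS, where array 3 was the highest. Its rise of 6.68 ± 0.95 (adjusted p = 7.4e-05) is a lower limit, since the untreated values lay at or next to the floor. The 6 TNBS values lay above all 5 untreated values for both genes, a condition for their place among the 15 largest rises. Retnla rose by 2.77 (adjusted p = 2.3e-06), the monocyte and eosinophil chemokine gene Ccl8 by 3.49 (adjusted p = 1.4e-05) and the lectin gene Clec10a by 2.71 (adjusted p = 8.6e-06). Resident macrophage markers moved less, with Mrc1 up 1.30 and Cd163 up 1.57. Fcrls did not pass (0.11 ± 0.34 (adjusted p = 1)).

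Most cytokines that head the type 2 program were not above background: Il5, Il13, Il9 and Il25 read 2.17 on all 11 arrays. Il4 was at the floor on the 5 untreated arrays and on TNBS arrays 2 and 6, reached 2.91 on TNBS array 1, and changed by 0.25 ± 0.092 (adjusted p = 0.0681). Their upstream alarmin and their receptors were measured: of 17 genes on that list 8 rose and 0 fell, at a median of 0.25. Csf2rb2 and Csf2rb, beta chains of the receptors for IL-3, IL-5 and GM-CSF, rose by 2.35 (adjusted p = 1.4e-06) and 1.91 (adjusted p = 1.4e-06). Il13ra2, the decoy receptor for IL-13, went from 5.09, 4.86, 3.47, 4.68 and 4.80 to 5.94 to 7.33 (median 6.70) (2.06 ± 0.30 (adjusted p = 9.8e-05)), with no overlap. Il4ra rose by 0.80 (adjusted p = 0.00027) and the alarmin gene Il33 by 0.97 (adjusted p = 0.0028). Il13ra1, the signalling receptor chain, changed by -0.14 ± 0.066 (adjusted p = 0.193).

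Neutrophil genes rose in 7 of 17 cases, at a median of 1.43, and were led by products that other cells also make. S100a9, a calprotectin subunit, read 5.06, 4.20, 2.79, 5.65 and 6.26 untreated and 7.48 to 11.44 (median 8.66) under TNBS (4.11 ± 0.94 (adjusted p = 0.0047)). Mmp9 rose by 4.15 (adjusted p = 1.0e-06), the chemokine gene Cxcl5 by 2.67 (adjusted p = 0.0029) and the decoy receptor gene Il1r2 by 1.63 (adjusted p = 0.0046). The granule genes Mpo, Elane, Camp and Ngp and the receptor gene Cxcr2 stayed at or near the floor, between 2.17 and 2.24 on every array. Stfa3, a stefin, showed how uneven this group was, with 2.30, 2.17, 2.17, 2.38 and 2.17 untreated and TNBS values of 4.60, 2.50, 10.03, 10.16, 6.94 and 10.75 on arrays 1 to 6 (5.26 ± 1.54 (adjusted p = 0.0231)). Its call did not pass without TNBS array 3, 4 or 6 (adjusted p = 0.0523 to 0.0565). Its 3 highest values fell on the arrays with the highest squamous list means. Stfa3 did not pass with the squamous mean as a covariate, with which 1 of the 17 neutrophil genes rose, and 4 of the 17 rose without TNBS arrays 3, 4 and 6. Setting values below log2 5 to 5 left 3 of the 17, and Cxcl5 and Il1r2 did not pass there.

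Receptors and effectors of antibody rose together. Of 14 Fc receptor genes and adaptors 10 rose and none fell (median 1.16). The IgG receptor genes Fcgr3 and Fcgr2b rose by 1.60 (adjusted p = 0.00013) and 1.52 (adjusted p = 0.00014). Fcer1g, the signalling chain shared by IgE and IgG receptors, rose by 1.14 (adjusted p = 0.00046). Among complement genes 12 of 15 rose and 0 fell, at a median of 1.07. They began with C1 (C1ra up 1.14, C1qa up 1.16), went through the anaphylatoxin receptor gene C3ar1 (2.24 ± 0.26 (adjusted p = 7.4e-06)) and ended with C6, a component of the membrane attack complex (2.56 ± 0.29 (adjusted p = 7.9e-06)). Cd55, which protects cells from complement, read 9.88, 9.87, 9.61, 10.09 and 10.01 untreated and 11.03 to 11.22 (median 11.10) under TNBS (1.23 ± 0.099 (adjusted p = 8.3e-08)). Cfb, of the alternative pathway, changed by 0.045 ± 0.11 (adjusted p = 0.951). The oxidase that makes superoxide in phagocytes was raised in its subunits Ncf1 (1.84 (adjusted p = 3.5e-05)), Ncf4 (1.26 (adjusted p = 0.00063)) and Cyba (0.41 (adjusted p = 0.0065)) and its partner Rac2 (1.60 (adjusted p = 0.00067)), with 7 of 9 members rising. The fall of the peroxidase gene Lpo by 0.27 did not pass without untreated array 3, 4 or 5 or TNBS array 4 (adjusted p = 0.0519 to 0.0834). Without TNBS arrays 3, 4 and 6 the rises were 4 of 9. Nos2, the inducible nitric oxide synthase, changed by 0.0057 ± 0.0047 (adjusted p = 0.5) and stood near the floor.

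Antigen presentation by MHC class II rose in 10 of 12 genes with a median of 1.03. H2-Ab1 read 10.77, 10.49, 10.50, 10.51 and 11.22 untreated and 11.77 to 12.05 (median 11.92) under TNBS (1.21 ± 0.18 (adjusted p = 0.00011)), without overlap. H2-DMa, which loads peptide, rose by 1.48 (adjusted p = 9.8e-05), H2-Eb1 by 0.91 (adjusted p = 0.00086) and the invariant chain gene Cd74 by 0.98 (adjusted p = 0.00035). The master regulator gene Ciita rose by 1.58 (adjusted p = 0.0044). For class I loading, 7 of 13 rose at a median of 0.36, led by the class I regulator Nlrc5 (1.79 ± 0.34 (adjusted p = 0.001)), but only 2 did without TNBS arrays 3, 4 and 6. Dendritic cell genes rose in 10 of 15 cases: Cd83 by 1.15 (adjusted p = 0.00013), the integrin gene Itgae by 0.96 (adjusted p = 0.00022), Ccl22 by 1.05 (adjusted p = 0.00038) and the lymph node homing receptor gene Ccr7 by 1.47 (adjusted p = 0.00048). The checkpoint and regulatory T cell list had 6 of 14 rise. Icos, a costimulatory receptor, went from 5.64, 5.03, 4.89, 4.49 and 5.86 to 7.07 to 7.86 (median 7.50) (2.35 ± 0.34 (adjusted p = 8.0e-05)), and Havcr2 (TIM-3) and Tnfrsf4 (OX40) rose by 1.15 (adjusted p = 0.0012) and 0.99 (adjusted p = 0.0021). Havcr2 and Tnfrsf4 were dim, with wild-type means of 4.24 and 2.78. With values below log2 5 set to 5 neither passed, and 1 of the 14 rose. Tnfrsf4 also did not pass on the 11 wild-type arrays alone. Foxp3, which defines regulatory T cells, and Il10 lay between 2.17 and 2.30 on all 11 arrays. B cell and follicle genes rose in 4 of 14 cases, Ltb by 1.06 (adjusted p = 0.0138) and Ms4a1 (CD20) by 1.34 (adjusted p = 0.0164), though Ms4a1 did not pass without untreated array 4 (adjusted p = 0.0558). With the squamous mean as a covariate 0 of the 14 rose.

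No gene of the Th17 or type I interferon lists rose with TNBS. Of 11 Th17 and IL-22 genes none rose, and Il22ra1, a chain of the epithelial IL-22 receptor, fell by 0.55 ± 0.08 (adjusted p = 9.7e-05). The antimicrobial lectins that IL-22 induces, Reg3b and Reg3g, changed by -0.38 ± 0.33 (adjusted p = 0.521) and -0.75 ± 0.42 (adjusted p = 0.26). Of 18 type I interferon-stimulated genes 0 rose and 0 fell (limma) at a median of -0.29, with 2 higher and 2 lower at an unadjusted p under 0.05, and the untreated arrays themselves were spread widely. Oas2, which makes 2-5A in antiviral defence, read 7.15, 5.23, 9.01, 8.58 and 8.88 on untreated arrays 1 to 5 and 6.72 to 8.05 (median 7.53) under TNBS. Arrays 1 and 2 were low and array 3 the highest, and the TNBS values lay within the untreated range (-0.34 ± 0.51 (adjusted p = 0.808)). Without untreated arrays 1 and 2, 7 of the 18 fell. Of the interferon-inducible GTPase genes 2 of 9 rose, Gbp2 (0.80 (adjusted p = 0.0052)) and Iigp1 (2.24 (adjusted p = 0.0073)). Neither of these passed once untreated arrays 1 and 2 were left out (adjusted p = 0.0648 and 0.12). Toll-like receptor and inflammasome genes rose in 5 of 21 cases, led by Tlr6 (0.62 (adjusted p = 1.5e-07)), Tlr13 (1.28 (adjusted p = 0.00012)) and Tlr7 (0.81 (adjusted p = 0.0012)), while the epithelial sensor gene Nlrp6 fell by 0.57 (adjusted p = 0.0025). There were 3 rises of 21 without TNBS arrays 3, 4 and 6.

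**Figure D3:**
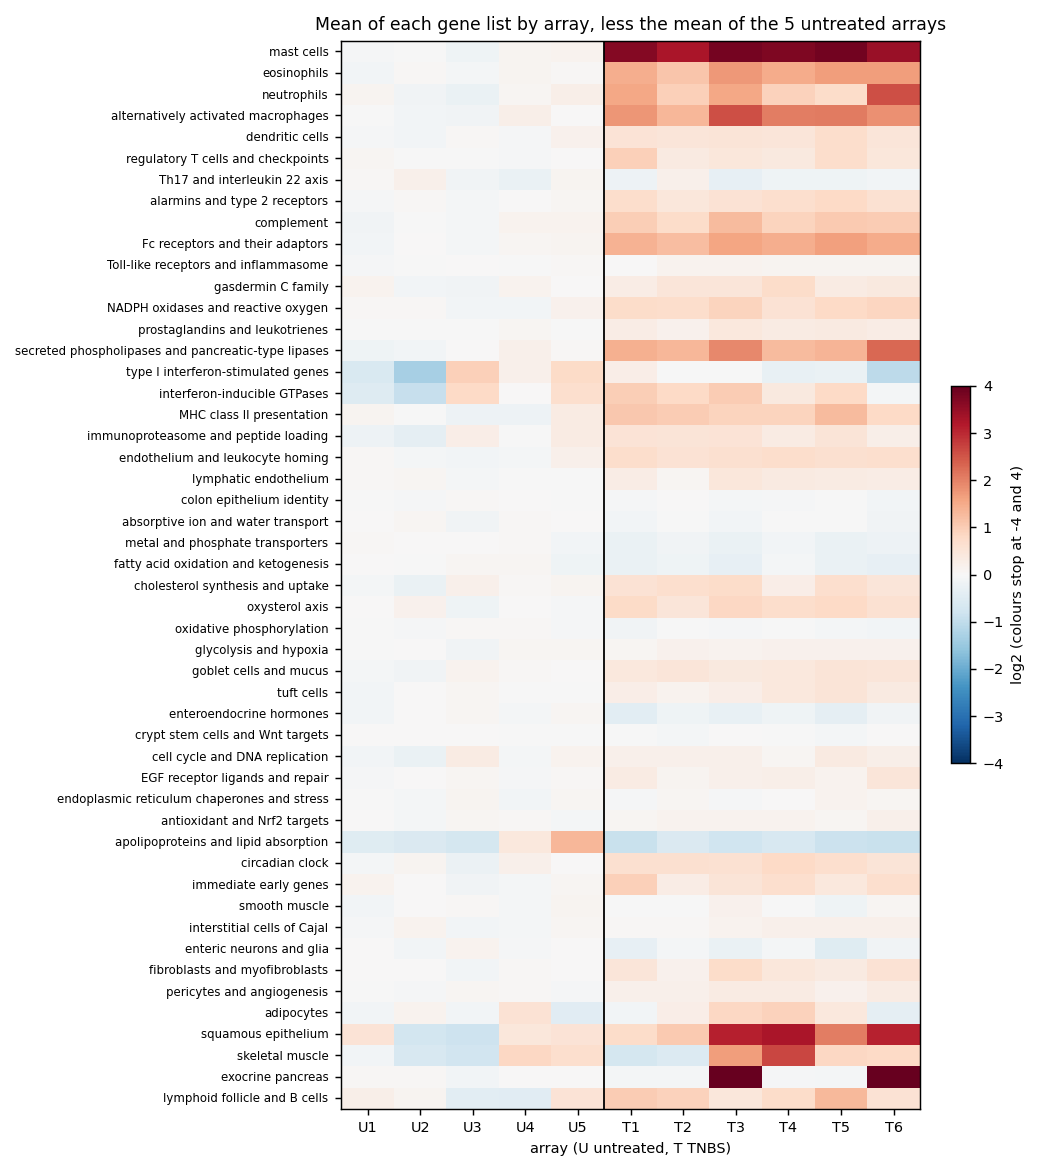
Mean log2 signal of each of 50 gene lists on each wild-type array (U1 to U5 untreated, T1 to T6 TNBS), less the mean of the 5 untreated arrays; colours stop at -4 and 4. The mast cell list is high on all 6 TNBS arrays, whereas the squamous and pancreas lists are high on only some of them and the apolipoprotein list is high on untreated arrays 4 and 5.

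Of 14 colon epithelial identity genes 1 rose and 3 fell, at a median of -0.037. Krt18 rose by 0.36 (adjusted p = 1.0e-05), and the transcription factor genes Cdx1 and Hnf4a fell by only 0.28 (adjusted p = 0.018) and 0.091 (adjusted p = 0.0186), and Hnf4a did not pass without untreated array 1 (adjusted p = 0.0507). None of the falls passed without TNBS arrays 3, 4 and 6. Muc2, the gel-forming mucin of goblet cells, read 13.55, 13.67, 13.85, 13.63 and 13.64 untreated and 13.72 to 13.81 (median 13.77) under TNBS (0.10 ± 0.054 (adjusted p = 0.246)), and Tff3 and Zg16 did not pass either (-0.03 and -0.027). Other goblet cell products rose, with 5 of 20 genes up and 1 down. Retnlb, the goblet cell hormone RELM-beta that type 2 cytokines induce, read 11.38, 11.15, 12.09, 11.85 and 11.71 untreated and 13.27 to 13.59 (median 13.43) under TNBS (1.79 ± 0.17 (adjusted p = 8.3e-07)). Itln1, an intelectin that binds microbial sugars, went from 10.61, 8.21, 9.30, 11.43 and 10.17 to 12.93 to 13.49 (median 13.43) (3.36 ± 0.40 (adjusted p = 9.9e-06)). Ang4, an antimicrobial ribonuclease, rose by 3.28 (adjusted p = 8.3e-07) and the mucus protein gene Fcgbp by 0.56 (adjusted p = 9.7e-07). Another probe set for Ang4 rose by 4.58. Muc13, a membrane mucin, fell by 0.38 (adjusted p = 0.0001).

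Lipid-hydrolysing enzymes rose with these secreted proteins, 7 of 16 at a median of 1.00. Pla2g4c, a cytosolic phospholipase A2, read 5.10, 4.77, 6.20, 6.36 and 6.05 untreated and 11.12 to 12.18 (median 12.11) under TNBS (6.19 ± 0.59 (adjusted p = 8.3e-07)). Pnliprp2, a lipase related to pancreatic lipase that is also made outside the pancreas, went from 5.33, 5.31, 6.21, 6.91 and 5.91 to 11.78 to 12.91 (median 12.48) (6.51 ± 0.28 (adjusted p = 3.2e-12)). TNBS arrays 3 and 6, where the acinar genes were bright, were not the highest for Pnliprp2, but the mean of this list was highest there (7.31 and 7.71). Which tissue the Pnliprp2 signal came from was not tested. Clps, colipase, rose by 2.34 (adjusted p = 2.2e-08), and Pla2g2a, an antimicrobial phospholipase of the crypt, by 1.87 (adjusted p = 2.2e-05). Pla2g1b and Cel, which are acinar products, changed by 1.29 ± 0.69 (adjusted p = 0.24) and 1.96 ± 0.96 (adjusted p = 0.196), with TNBS arrays 3 and 6 the highest. Gsdmc2, a gasdermin C gene of the intestinal epithelium, read 12.06, 11.93, 11.46, 12.17 and 11.86 and 13.52 to 13.69 (median 13.59) (1.70 ± 0.14 (adjusted p = 1.2e-07)), 1 of 2 rises among 5 gasdermin genes. Gsdmd rose by 0.30 (adjusted p = 0.0088), but did not pass without TNBS arrays 3, 4 and 6, without untreated arrays 1 and 2 or after centring on the median over genes. Kcnj16, an inwardly rectifying potassium channel, stood at the floor of 2.17 on all untreated arrays and at 6.46 to 7.89 (median 7.25) under TNBS, and its rise (5.0 ± 0.40 (adjusted p = 8.3e-08)) is a lower limit. Clca2, a regulator of chloride conductance, read 2.81, 2.80, 2.64, 2.94 and 2.69 and 6.42 to 7.40 (median 7.09) (4.23 ± 0.18 (adjusted p = 2.6e-12)). Spink5, a serine protease inhibitor of keratinising epithelium, read 4.37, 3.13, 2.17, 3.29 and 3.87 and 7.30 to 8.59 (median 8.20) (4.69 ± 0.56 (adjusted p = 1.1e-05)). All 3 are among the 15 largest rises, which were taken only from genes with every TNBS array above every untreated array. Which cells these rises came from was not tested.

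Of 27 metal and phosphate transporters 2 rose and 6 fell. Trpm6, the magnesium channel of the colon, read 8.64, 8.65, 8.74, 8.90 and 8.62 untreated and 6.71 to 7.60 (median 6.91) under TNBS, so it fell by 1.71 ± 0.18 (adjusted p = 3.7e-06). Slc30a10, an exporter of manganese, read 7.69, 7.86, 7.91, 7.83 and 7.40 and 5.07 to 6.45 (median 5.58) and fell by 2.04 ± 0.26 (adjusted p = 2.3e-05). Slc34a2, a sodium-phosphate cotransporter, read 10.48, 10.74, 10.04, 10.45 and 10.11 and 8.71 to 9.53 (median 8.89) and fell by 1.33 ± 0.36 (adjusted p = 0.0141). For all 3 every TNBS array lay below every untreated array, a condition for their place among the 15 largest falls. The zinc exporter gene Slc30a1 fell by 0.52 (adjusted p = 0.0021), and Cybrd1, a ferric reductase, rose by 0.73 (adjusted p = 0.0035). Of 24 genes of ion and water transport 0 rose and 7 fell, at a median of -0.094. Sgk1, the aldosterone-responsive kinase, fell by 0.44 (adjusted p = 2.3e-06), the bicarbonate cotransporter gene Slc4a4 by 0.52 (adjusted p = 0.004), the sodium-proton exchanger gene Slc9a2 by 0.33 (adjusted p = 0.0119) and the carbonic anhydrase gene Car2 by 0.15 (adjusted p = 0.0026). Without TNBS arrays 3, 4 and 6 the falls were 2 of 24. The bulk transporters Slc26a3 (-0.12), Aqp4 (-0.0021) and Car1 (-0.13) did not pass.

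Fatty acid oxidation genes fell in 5 of 20 cases and rose in none, at a median of -0.21. The coactivator gene Ppargc1a fell by 0.53 (adjusted p = 0.0029), the butyrate and lactate carrier gene Slc16a1 by 0.41 (adjusted p = 0.006), and Hadha and Hadh, enzymes of the beta-oxidation spiral, by 0.40 (adjusted p = 0.0134) and 0.15 (adjusted p = 0.0073). Without TNBS arrays 3, 4 and 6, 1 of these falls passed. Oxidative phosphorylation genes fell in 3 of 23 cases by small amounts (Cox4i1 by 0.095 (adjusted p = 0.0148)), and none passed without those arrays. Glycolysis and hypoxia genes were mixed, 7 of 21 rising and 2 falling, but 4 and 0 without TNBS arrays 3 and 6. Egln3, an oxygen sensor, rose by 1.50 (adjusted p = 8.7e-06), Pfkfb3, a driver of glycolysis, by 1.34 (adjusted p = 4.0e-05), Slc2a1 by 0.21 (adjusted p = 0.0016) and Pgk1 by 0.18 (adjusted p = 0.0052). The Slc2a1 and Pgk1 rises did not pass after centring on the median over genes.

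Genes of cholesterol synthesis rose together. Of 16 genes measured 13 rose and none fell, against 10.2% of all genes, with a median of 0.66. From the early steps to the late ones, Idi1, the isoprenoid isomerase, rose by 0.74 (adjusted p = 0.00057), Fdft1, squalene synthase, by 0.90 (adjusted p = 0.00069) and Cyp51, lanosterol demethylase, by 0.81 (adjusted p = 2.4e-05). Cyp51 read 11.01, 10.70, 11.38, 11.14 and 11.19 on untreated arrays and 11.72 to 12.05 (median 11.91) under TNBS. The mevalonate kinase gene Mvk rose by 0.59 (adjusted p = 0.00089) with overlap between the groups. Hmgcs1 (0.18 ± 0.067 (adjusted p = 0.0831)) and Insig1 (0.22 ± 0.081 (adjusted p = 0.065)) did not pass. There were 10 calls left after centring on the median over genes and 12 without TNBS arrays 3, 4 and 6. Genes of the oxysterol axis, in which side-chain oxidised cholesterol guides immune cells, rose in 5 of 9 cases. Ch25h, which makes 25-hydroxycholesterol, read 4.21, 4.41, 4.39, 4.37 and 4.43 and 5.96 to 6.63 (median 6.09) (1.86 ± 0.15 (adjusted p = 8.3e-08)). Cyp7b1, which acts on its product, rose by 1.33 (adjusted p = 0.00037), the receptor gene Gpr183 by 0.88 (adjusted p = 0.0057), and the exporter genes Abca1 and Abcg1 by 0.98 (adjusted p = 0.0026) and 1.12 (adjusted p = 0.00087). Eicosanoid genes rose in 7 of 21 cases, with Alox5ap, the partner of 5-lipoxygenase, up by 1.83 ± 0.19 (adjusted p = 3.2e-06), the thromboxane synthase gene Tbxas1 by 1.16 (adjusted p = 6.7e-05), the prostacyclin synthase gene Ptgis by 0.79 (adjusted p = 0.0046) and the PGE2 receptor gene Ptger2 by 0.60 (adjusted p = 0.0036).

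Enteroendocrine genes fell in 6 of 18 cases and rose in none, at a median of -0.32. Chga, the granule protein of most endocrine cells, read 7.90, 8.10, 8.49, 8.01 and 8.19 untreated and 7.21 to 7.78 (median 7.57) under TNBS, so it fell by 0.61 ± 0.17 (adjusted p = 0.0164), and the lineage factor gene Neurod1 fell by 0.77 ± 0.14 (adjusted p = 0.00086). Chgb fell by 0.38 (adjusted p = 0.0167) and Tac1 by 0.46 (adjusted p = 0.0092), while the hormone gene Pyy did not pass (0.035 ± 0.13 (adjusted p = 1)). Without TNBS arrays 3, 4 and 6 the falls were 4 of 18, and 3 without untreated arrays 4 and 5, where Chga did not pass. Tuft cell genes rose in 3 of 13 cases, Siglecf, Avil (0.82 (adjusted p = 0.0021)) and Alox5 (0.60 (adjusted p = 0.0169)), but the markers that define the cell did not pass: Dclk1 changed by 0.027 ± 0.083 (adjusted p = 1), Trpm5 by 0.56 ± 0.23 (adjusted p = 0.111), and Pou2f3 stayed at the floor. With values below log2 5 set to 5, 1 of the 13 rose, and Avil and Alox5 did not pass. Of 19 crypt stem cell and Wnt target genes 2 rose and 3 fell, a share of rises near that of all genes. Smoc2 rose by 0.48 (adjusted p = 0.004), but 0 of the 19 rose without TNBS arrays 3, 4 and 6 (limma). Of 27 cell cycle genes only Rrm2 rose (0.45 (adjusted p = 0.0397)), a call that did not pass without untreated array 1, 2 or 4 or TNBS array 1, 2, 3, 5 or 6 (adjusted p = 0.0544 to 0.117), and 9 were higher at an unadjusted p under 0.05. Of 23 genes of EGF receptor ligands and repair 7 rose and 2 fell, but 0 fell without TNBS arrays 3, 4 and 6 (limma). Those that rose included the oncostatin M receptor gene Osmr (1.10 ± 0.13 (adjusted p = 1.4e-05)), its partner chain Il6st by 0.66 (adjusted p = 8.6e-05), Stat3 by 0.61 (adjusted p = 0.0011) and its feedback inhibitor Socs3 by 0.89 (adjusted p = 0.0016). Dimmer probe sets above the floor changed by 0.0997 and 0.17 for Stat3 and by -0.016 and 0.39 for Il6st. Of 22 endoplasmic reticulum genes 2 rose (9.09%), a share near the 10.2% of all genes, with Edem1 up by 0.47 (adjusted p = 6.5e-05). A dimmer probe set of Edem1 went the other way (-0.20). Antioxidant genes rose in 5 of 17 cases, led by the epithelial glutathione peroxidase Gpx2 (0.72 ± 0.12 (adjusted p = 0.00036)) and the haem oxygenase Hmox1 (1.55 (adjusted p = 0.0036)), but in 2 without TNBS arrays 3, 4 and 6.

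Circadian clock genes changed in both directions, 8 of 19 rising and 3 falling. The clock is a feedback loop in which ARNTL (BMAL1) with CLOCK or NPAS2 binds E-boxes. That pair drives the Per, Cry, Rev-erb and PAR-bZIP genes, and the Per, Cry and Rev-erb products then repress the loop. Of the activators, Arntl and Npas2 fell. Arntl read 9.04, 9.04, 9.06, 8.69 and 8.90 untreated and 6.10 to 6.82 (median 6.51) under TNBS, the largest fall without overlap of all genes (2.46 ± 0.37 (adjusted p = 0.00014)), and Npas2 read 9.94, 9.84, 9.91, 9.62 and 9.63 and 7.68 to 8.33 (median 8.10) and fell by 1.72 ± 0.26 (adjusted p = 0.00015). Dbp, Tef and Ciart rose: Dbp went from 6.95, 7.59, 6.39, 8.71 and 7.18 to 10.12 to 10.89 (median 10.60) (3.21 ± 0.55 (adjusted p = 0.00052)), Tef from 8.18, 8.49, 7.57, 9.21 and 8.59 to 10.54 to 10.84 (median 10.72) (2.31 ± 0.46 (adjusted p = 0.0016)), and Ciart from 2.17, 2.17, 2.17, 2.17 and 2.17 to 4.15 to 5.76 (median 5.0) (2.82 ± 0.42 (adjusted p = 0.00011)), a lower limit because it started at or next to the floor. The groups did not overlap for any of these 5 genes. Per3 rose by 2.11 (adjusted p = 0.001), Hlf by 2.36 (adjusted p = 0.0016), Nr1d2 by 1.09 (adjusted p = 0.0012), Per1 by 0.90 (adjusted p = 0.0129) and Bhlhe40 by 0.60 (adjusted p = 0.00012). Cry1, a target and repressor of the activators, fell by 0.73 (adjusted p = 0.0014), and Clock (-0.24 ± 0.082 (adjusted p = 0.0543)), Per2 (0.87 ± 0.39 (adjusted p = 0.153)) and Nr1d1 (0.94 ± 0.40 (adjusted p = 0.13)) did not pass. The fall of Clock passed under 10 of 29 alternatives tried, and the rises of Per2 and Nr1d1 under 1 each. The labels give no hour of tissue collection, so collection time and treatment cannot be told apart.

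The windows before the start of 4 of these genes held the E-box letters CACGTG, and that of Per3 held the D-box TTATGTAA, the element read by the products of Dbp, Tef and Hlf. They are shown in the same way as the mast cell sequences, with the element in capitals. Positions on GRCm38.p6 are chr11:69098759-69098812, plus strand for Per1, chr10:85185085-85185138, minus strand for Cry1, chr15:81802522-81802575, plus strand for Tef, chr3:95882243-95882310, minus strand for Ciart and chr4:151044792-151044894, minus strand for Per3.
Per1: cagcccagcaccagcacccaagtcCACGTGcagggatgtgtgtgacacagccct
Cry1: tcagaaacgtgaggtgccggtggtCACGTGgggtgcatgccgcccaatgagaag
Tef: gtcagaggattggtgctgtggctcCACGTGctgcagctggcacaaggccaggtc
Ciart: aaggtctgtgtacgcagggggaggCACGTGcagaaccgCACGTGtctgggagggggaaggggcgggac
Per3: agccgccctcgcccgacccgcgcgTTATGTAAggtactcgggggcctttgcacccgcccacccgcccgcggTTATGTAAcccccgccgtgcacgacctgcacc

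CACGTG occurred in the 250 bases before the start in 5 of the 17 clock genes with an entry, against 6.02% of all windows, and TTATGTAA in 2 of 17 against 0.819%. Genes were again counted by any of their windows (Per1 and Tef have 2 each) and set against single windows. The E-box genes include both risers (Per1, Tef, Ciart) and Cry1, which fell, so the element went with neither direction alone. Arntl, Npas2 and Dbp had no CACGTG in this window, which says only that these letters are not in it.

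Immediate early genes, which respond to stimulation within minutes, rose in 7 of 21 cases and fell in 1. Egr1 read 10.35, 10.03, 10.01, 9.97 and 10.81 untreated and 11.57 to 12.42 (median 11.84) under TNBS (1.69 ± 0.21 (adjusted p = 2.1e-05)), and its relatives Egr2 and Egr3 rose by 3.01 (adjusted p = 0.00031) and 2.58 (adjusted p = 0.0012). Ier3 rose by 0.78 (adjusted p = 0.0005). Fos (0.21 ± 0.13 (adjusted p = 0.342)) and Jun (-0.025 ± 0.071 (adjusted p = 0.993)), the best known members, did not pass.

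Of 19 endothelial and homing genes 10 rose and 1 fell. Selp, P-selectin, read 5.61, 4.96, 5.13, 5.32 and 5.29 untreated and 7.04 to 8.17 (median 7.38) under TNBS (2.20 ± 0.24 (adjusted p = 4.2e-06)), without overlap. Its ligand gene Selplg rose by 1.50 (adjusted p = 0.00025), Vcam1 by 1.39 (adjusted p = 6.7e-05) and Vwf, von Willebrand factor, by 1.38 (adjusted p = 1.6e-07). Sele, E-selectin, stayed at the floor, and Cdh5 changed by 0.10 ± 0.052 (adjusted p = 0.199). Of the lymphatic list 3 of 8 rose (Pdpn by 0.66 (adjusted p = 0.00042), Reln by 0.59 (adjusted p = 0.0168) and Vegfc by 0.50 (adjusted p = 0.0039)), but Lyve1 and Prox1, the defining markers, changed by -0.077 ± 0.20 (adjusted p = 0.969) and 0.29 ± 0.13 (adjusted p = 0.157). Without TNBS arrays 3, 4 and 6, 1 rise passed. Fibroblast genes rose in 9 of 17 cases at a median of 0.30: Lox, which crosslinks collagen, by 1.66 ± 0.31 (adjusted p = 0.00093), Col6a1 by 0.71 (adjusted p = 4.6e-05), Thy1 by 0.57 (adjusted p = 0.00099) and the matrix protein gene Tnc by 0.57 (adjusted p = 0.0012). The pan-fibroblast genes Pdgfra (0.12), Dcn (0.28) and Lum (0.29) did not pass, and 5 of 17 rose without those arrays. Pericyte and angiogenic genes rose in 3 of 13 cases (Notch3 by 0.93 (adjusted p = 0.0136)), none of which passed without those arrays. Of 16 smooth muscle genes only Actg2 rose, by 0.20 (adjusted p = 0.0208), and it did not pass without untreated array 2 or TNBS array 3 or 6 (adjusted p = 0.05 to 0.0558). Acta2 and Myh11 changed by -0.038 ± 0.04 (adjusted p = 0.634) and 0.15 ± 0.079 (adjusted p = 0.225). Of 16 enteric neuron and glial genes only Snap25 fell (0.47 (adjusted p = 0.013)), though the median of the list was -0.28. Of the 7 genes of interstitial cells of Cajal, Gja1 and Prkcq rose (0.48 and 1.05), though Gja1 did not pass without TNBS arrays 3, 4 and 6, while Ano1, which defines them, changed by -0.033 ± 0.089 (adjusted p = 0.983). Adipocyte genes gave 0 calls among 10 (limma), and at an unadjusted p under 0.05 there was 1 higher and 1 lower.

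Genes of other tissues that moved with the TNBS group were those of squamous epithelium. Of 18 measured 8 rose and none fell, at a median of 2.39. Krt14, a keratin of basal cells, read 5.51, 3.83, 3.21, 5.34 and 5.53 untreated and 6.85 to 9.79 (median 9.27) under TNBS (4.11 ± 0.82 (adjusted p = 0.0018)), and Lgals7 rose by 3.58 (adjusted p = 0.0299) but did not pass without untreated array 1, 2 or 3 or TNBS array 3, 4 or 6 (adjusted p = 0.0529 to 0.068). None of the 18 passed when TNBS arrays 3, 4 and 6, with the highest squamous means, were left out. In skeletal muscle only Tnni1 was called, and it fell by 1.50 (adjusted p = 0.0025). The 10 pancreas genes had a median of 2.13 with 0 calls by limma and 0 at an unadjusted p under 0.05, and only TNBS arrays 3 and 6 carried them. Of 20 apolipoprotein and lipid absorption genes 2 rose (10%) and 1 fell (5%), at a median of -0.33. These shares are near the 10.2% and 6.27% of all genes. Scarb1 was among the rises (0.38 (adjusted p = 0.0097)). Without TNBS arrays 3 and 6 there were 0 rises (limma), and Scarb1 did not pass. That fall was in Abcg5, a sterol transporter, which read 8.67, 8.84, 5.70, 9.11 and 8.60 untreated and 4.39 to 6.26 (median 5.39) under TNBS and fell by 2.83 ± 0.52 (adjusted p = 0.00092), with overlap through untreated array 3. Apoa1 changed by -2.49 ± 1.23 (adjusted p = 0.198), following untreated arrays 4 and 5.

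Several of these counts rested on few arrays. Of 181 called genes named here 31 did not pass without TNBS arrays 3, 4 and 6 (limma, adjusted p = 0.05 to 0.473). These were Actg2, Car2, Cdx1, Cldn4, Cox4i1, Cyba, Gja1, Gsdmd, Hadh, Hadha, Hmox1, Hnf4a, Il1r2, Krt14, Lgals7, Lpo, Naaladl1, Notch3, Per1, Ptgis, Reln, Rrm2, S100a9, Scarb1, Slc16a1, Slc9a2, Smoc2, Snap25, Stfa3, Tnfrsf12a and Vegfc. Of the 181, 12 did not pass without TNBS arrays 3 and 6 (adjusted p = 0.0548 to 0.169). Without untreated arrays 4 and 5 the calls of 12 were lost (adjusted p = 0.0509 to 0.16), Alox5 and Hadha among them. Without untreated arrays 1 and 2 they were lost for 23 (adjusted p = 0.0521 to 0.249), among them Alox5, Cyba, Hadh, Hadha, Per1, Slc16a1, Slc34a2, Slc9a2, Snap25 and Tac1. Without untreated arrays 1 and 2 the rises were also 5 of 15 for dendritic cells, 2 of 13 for class I loading, 4 of 23 for repair and 1 of 18 for squamous epithelium. In the same fit the falls were 3 of 27 for metal and phosphate transporters, 3 of 24 for ion and water transport, 1 of 20 for fatty acid oxidation and 3 of 18 for enteroendocrine genes.

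A single array was enough to move 28 of the 100 list counts by over 1.5 times, 17 of them counts of 1 or 2 genes. Class I loading rises went from 7 to 2 without untreated array 1 or 2, to 3 without TNBS array 2, 3 or 5 and to 4 without untreated array 4. Squamous rises went from 8 to between 1 and 5 without untreated array 1, 2, 3 or 4 or TNBS array 3, 4, 5 or 6. B cell rises went from 4 to 1 without untreated array 4 and to 2 without untreated array 2 or 3 or TNBS array 1. Repair rises went from 7 to 4 without untreated array 1 or 4, and glycolysis rises from 7 to 4 without untreated array 3. Pericyte rises went from 3 to 1 without untreated array 1 or TNBS array 6, and tuft cell rises from 3 to 5 without TNBS array 2. The ion and water transport falls went from 7 to 4 without untreated array 1 or 4 or TNBS array 1. The oxidative phosphorylation falls went from 3 to 1 without untreated array 3 or 4 or TNBS array 1 or 6. Those of fatty acid oxidation went from 5 to 8 without untreated array 5 or TNBS array 2. The crypt falls went from 3 to 1 without untreated array 1 or 5 or TNBS array 5, and to 0 without untreated array 4 or TNBS array 6.

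**Figure D4:**
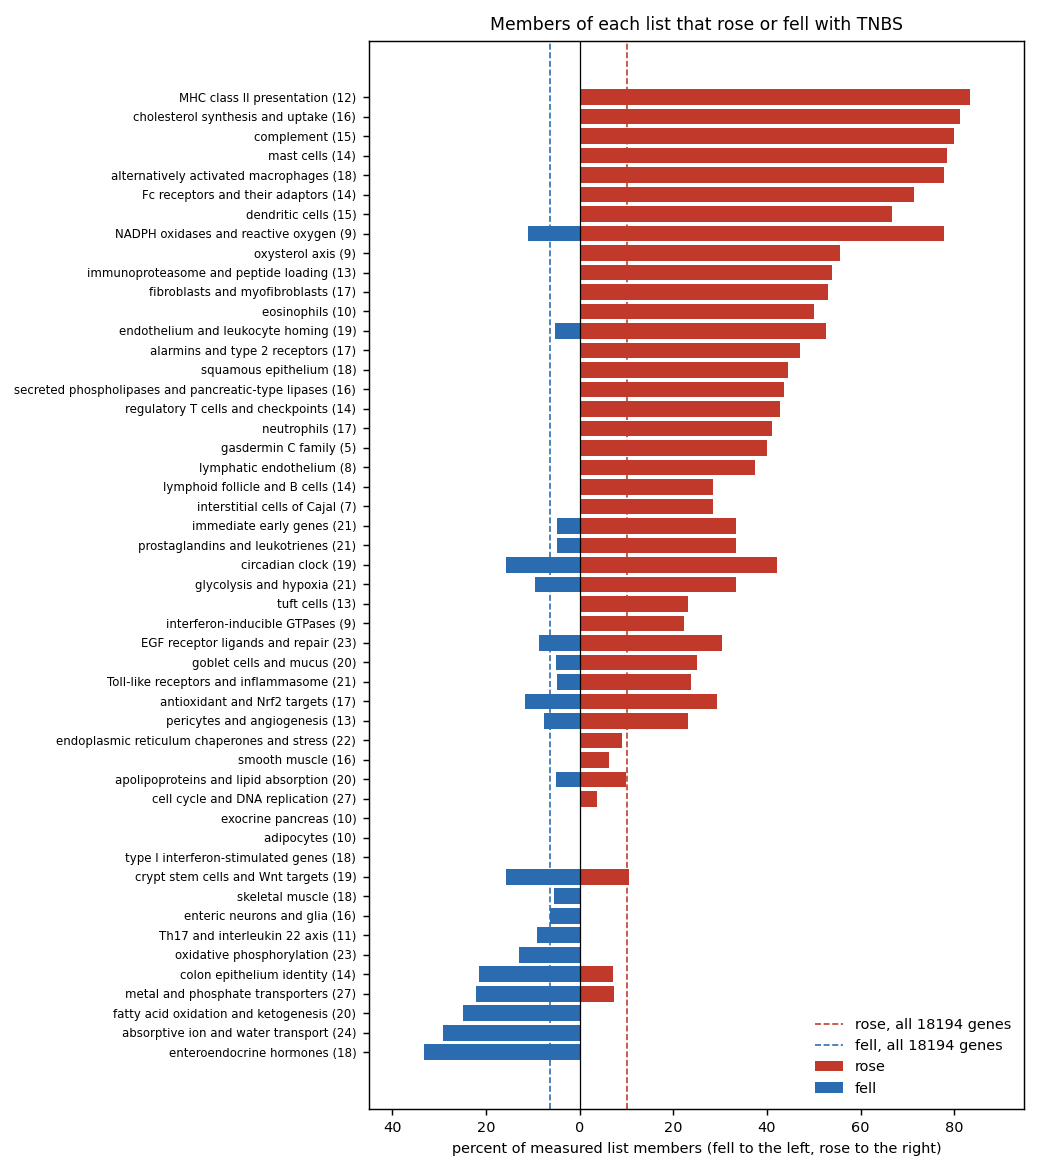
Percent of the measured members of each list (number in brackets) that rose (red, to the right) or fell (blue, to the left) with TNBS in wild type, with dashed lines at the shares over all 18194 genes (10.2% rose, 6.27% fell). MHC class II, cholesterol synthesis, complement and mast cell genes lie farthest to the right, and enteroendocrine and ion transport genes farthest to the left.

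Besides the clock and transporter genes, the largest falls without overlap were in genes of several functions. Atrnl1, attractin-like 1, read 9.33, 9.41, 9.88, 9.39 and 10.07 untreated and 7.20 to 9.17 (median 7.50) under TNBS and fell by 1.89 ± 0.24 (adjusted p = 2.5e-05). TNBS array 2, at 9.17, stood close to the untreated arrays and the other 5 did not exceed 7.63. Kcna1, a voltage-gated potassium channel, fell by 1.67 ± 0.30 (adjusted p = 0.00082) from 5.19, 5.34, 5.47, 5.18 and 4.86 to 2.78 to 4.55 (median 3.56). Vnn1, a pantetheinase, read 8.63, 8.35, 9.51, 8.78 and 8.75 and 6.81 to 8.01 (median 7.40) and fell by 1.39 ± 0.30 (adjusted p = 0.0035). Cldn8, a tight junction claudin of the distal colon, fell by 1.26 (adjusted p = 6.6e-05) and Abhd3, a phospholipase of the alpha/beta hydrolase fold, by 1.58 (adjusted p = 0.0025). Smaller falls were those of Tmem35a (1.26 (adjusted p = 0.0002)), Itih2, a heavy chain of the inter-alpha-trypsin inhibitor (1.24 (adjusted p = 0.00059)), and the peptidase-like Naaladl1 (1.23 (adjusted p = 0.0093)). Lancl3 fell by 1.20 (adjusted p = 0.0016) and Edn2, an endothelin, by 1.19 (adjusted p = 0.00085).

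The response in wild type was then set against that in mice lacking Fn14, whose 12 arrays are separate from these 11. The array labels held: Tnfrsf12a read 6.65 ± 0.52 (SD, n = 5) untreated and 7.35 ± 0.51 (n = 6) under TNBS in wild type, against 4.11 ± 0.059 (n = 5) and 4.06 ± 0.11 (n = 7) in knockout. In wild type itself Tnfrsf12a rose by 0.70 (adjusted p = 0.0293), with overlap, and did not pass without untreated array 1, 2 or 4 or TNBS array 4 or 6 (adjusted p = 0.0554 to 0.0954). Of the 2998 genes called in wild type, 732 were also called in the same direction in knockout, which is 24.4% of the wild-type and 47.0% of the knockout calls. The difference of the TNBS effects passed for 363 genes, with wild type minus knockout above 0 for 250 (1.37% of genes) and below 0 for 113 (0.621%). A value below 0 can be a smaller rise or a deeper fall in wild type, and among the 113 the wild-type change was the larger in size for 64, as for the falls of Atrnl1, Slc30a10 and Sgk1. It did not pass for 2743 of the wild-type calls, which does not show that the effects were alike. Without untreated array 1 the difference passed for 238 genes, without untreated arrays 4 and 5 for 202, without TNBS arrays 3 and 6 for 226 and without TNBS arrays 3, 4 and 6 for 105.

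The largest differences in favour of wild type included a pair of genes whose untreated levels set it. Ctps2, a CTP synthase, averaged 6.01 ± 0.16 in untreated wild type and 9.29 ± 0.12 under TNBS, but 9.23 ± 0.14 and 9.23 ± 0.076 in knockout. S100g, calbindin-D9k, averaged 8.19 ± 0.90 and 11.77 ± 0.35 in wild type and 12.48 ± 0.18 and 12.23 ± 0.25 in knockout. The wild-type effect exceeded the knockout effect by 3.28 ± 0.10 (adjusted p = 5.3e-14) and 3.83 ± 0.40 (adjusted p = 8.0e-05). Among inflammatory genes, Rnase2a rose by 8.07 in wild type and 5.36 in knockout, a difference of 2.72 ± 0.60 (adjusted p = 0.0225). Mmp9 differed by 2.43 ± 0.56 (adjusted p = 0.0291) and Mmp13, another collagen-degrading metalloproteinase, by 2.38 ± 0.46 (adjusted p = 0.0116), its rise being 2.68 in wild type and 0.30 in knockout. Cldn4, a claudin, differed by 2.05 ± 0.48 (adjusted p = 0.0294). Of the mast cell genes, Mcpt4 (1.63 ± 0.35 (adjusted p = 0.0177)), Cpa3 (1.36 ± 0.30 (adjusted p = 0.0225)), Fcer1a (2.03 ± 0.45 (adjusted p = 0.0225)) and Ms4a2 (1.65 ± 0.32 (adjusted p = 0.013)) rose more in wild type. Mcpt1 rose by 9.24 and 9.33, a difference of -0.095 ± 0.43 (adjusted p = 1) that did not pass, nor did that of Mcpt2 (0.31 ± 0.53 (adjusted p = 0.88)). The differences of Ctps2, S100g, Mmp13 and Ms4a2 also passed without TNBS arrays 3, 4 and 6 (limma, adjusted p = 9.46e-11 to 0.0314), while those of Rnase2a, Mmp9, Cldn4, Cpa3, Fcer1a and Mcpt4 did not (adjusted p = 0.0652 to 0.157). That of Cldn4 did not pass without untreated array 3 or 5 or TNBS array 4 (adjusted p = 0.0518 to 0.0551), nor that of Mmp9 without untreated array 4 (adjusted p = 0.0547). With values below log2 5 set to 5 the differences of Mmp13, Ms4a2 and Cldn4 did not pass. Nor did the wild-type rises of Mmp13 and Cldn4 in that fit.

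The 6 largest differences in the other direction were in interferon-stimulated genes. Oas2 changed by -0.34 in wild type and 3.72 in knockout, a difference of -4.06 ± 0.71 (adjusted p = 0.0076). Usp18 differed by -3.35 ± 0.63 (adjusted p = 0.0101), Ifi44l by -3.21 ± 0.73 (adjusted p = 0.0244), Oas3 by -3.00 ± 0.66 (adjusted p = 0.0217), Ifit3 by -2.97 ± 0.60 (adjusted p = 0.015) and Oasl2 by -2.92 ± 0.41 (adjusted p = 0.0015). With TNBS arrays 3, 4 and 6 left out the difference of Oasl2 still passed (adjusted p = 0.00831) and those of the other 5 did not (adjusted p = 0.0502 to 0.143). Of the 18 genes of that list 10 had a called difference, all below 0. The untreated wild-type arrays were themselves uneven for this list, at 8.78, 8.05, 10.33, 9.58 and 10.16, and the part of that spread in the difference was not tested beyond leaving out arrays. Circadian genes showed no called difference: the fall of Arntl was 2.46 below untreated in wild type and the knockout change was -1.44, a difference of -1.01 ± 0.52 (adjusted p = 0.359).

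**Figure D5:**
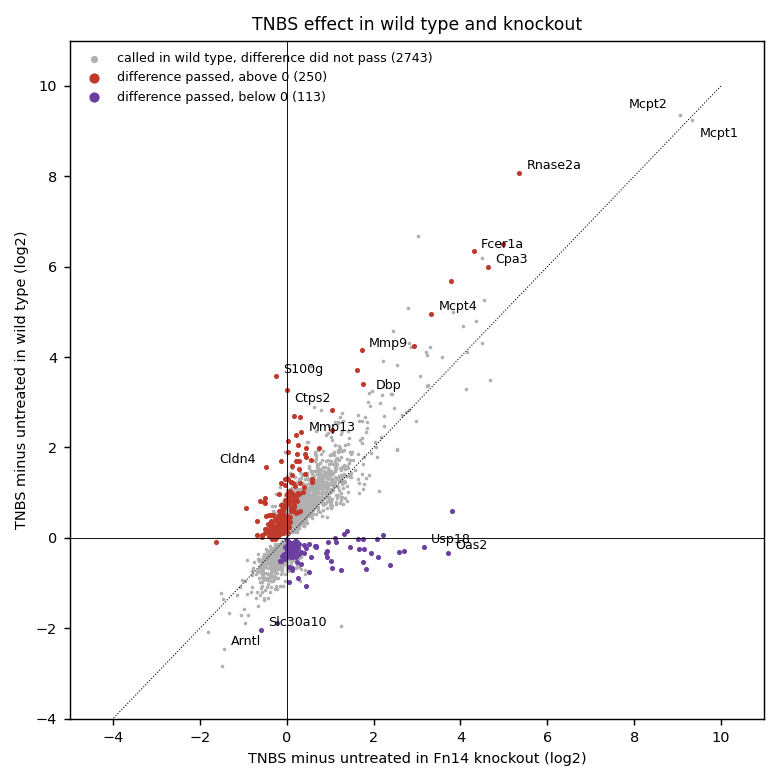
TNBS minus untreated (log2) in Fn14 knockout on the x axis and in wild type on the y axis, for genes called in wild type or for the difference; the dotted line marks equal effects. Red points (250) passed the test of the difference with wild type minus knockout above 0 and purple points (113) with it below 0, and Mcpt1 and Mcpt2 lie close to the line.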

How the data were processed

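Mouse colon RNA was hybridised to 23 Affymetrix expression arrays. The authors' deposited values are log2 signals for 45101 probe sets. Per the submitters' processing notes RMA and GCRMA were used, and which of them made this table was not settled. The lowest deposited value is shared by many probe sets and is called the floor. No scan date or other batch is given in the labels used here. No array repeated another's values.

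Of the probe sets 34958 carried 1 gene in the platform annotation, 932 several and 9211 none. Of the first, 34754 were matched by gene ID to the RefSeq table (GRCm38.p6). The brightest probe set by mean over all arrays stood for each of 18194 genes. limma 3.58.1 (R 4.3.3) fitted 4 group means to all 23 arrays, with Benjamini-Hochberg adjustment over all genes and a threshold of 0.05. The script was tested on simulated data. Groups came from the sample titles. The 50 gene lists hold 866 genes, of which 787 were measured. Members and lists were chosen with earlier results of these data known.

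Named genes were the 15 largest rises and falls without overlap, up to 4 called members of a list with the smallest p, list members that did not pass, and the 6 largest differences from knockout in each direction. These called genes fall outside that rule and were chosen after their values were seen: C1qa, Ccl11, Cd163, Ciita, Cry1, Dbp, Fcer1g, Gata2, Gpr183, Hdc, Hlf, Il33, Lpo, Mrc1, Muc13, Nr1d2, Per1, Per3, Tef, Tnfrsf12a and Tpsb2. Promoter sequences are RefSeq's. Other moderations, scalings, filters, covariates and samples were tried, with their effect given in the closing section. Figures were drawn with matplotlib 3.10.9.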

Additional observations from a re-analysis of the deposited data

Results flagged for a closer look

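In 28 cases a single wild-type array stood apart from the others of its group by Dixon's ratio, 13 among untreated and 15 among TNBS arrays. The genes gave 458 groups, but a group wholly within 0.15 of the floor was not read, so fewer were read. Chance alone gives about 1 in 20 of the groups read, and no cause was tested. Untreated array 3 accounted for 6 of them. There Abcg5 read 5.70 where the nearest other array read 8.60, Il13ra2 3.47 (nearest 4.68), Pyy 11.48 (nearest 11.97), Tnni1 6.57 (nearest 7.97), Vwf 6.24 (nearest 6.44) and Ms4a2 2.36 where the other 4 were at the floor. Untreated array 5 was high for the class II genes Cd74 (12.78, nearest 12.26) and H2-DMa (8.27, nearest 7.66) and for Tlr7 (3.00, nearest 2.62), and low for Car2 (13.60, nearest 13.66) and Hadh (13.79, nearest 13.86). Ch25h read 4.21 on untreated array 1 (nearest 4.37) and Tlr6 4.18 on untreated array 4 (nearest 4.26).

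Among TNBS arrays, array 2 was high for Reg3g (13.09, nearest 11.69), Atrnl1 (9.17, nearest 7.63), Apoa1 (2.86, nearest 2.30) and Cox4i1 (13.05, nearest 12.97), and low for the oxidase subunit gene Ncf1 (6.91, nearest 7.42). Array 3 was high for Chil3 (10.23, nearest 8.70), C3ar1 (8.63, nearest 7.60) and the tryptase gene Tpsab1 (3.37, nearest 2.55). On array 4 Ppargc1a was high (9.22, nearest 8.88) and Fos low (11.73, nearest 12.15). Array 5 was high for Aqp4 (12.93, nearest 12.68) and Cd83 (11.48, nearest 11.26). Array 6 was high for Socs3 (8.42, nearest 7.70) and low for Oasl2 (9.12, nearest 10.01), and array 1 was low for Neurod1 (6.07, nearest 6.41).

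The TNBS effect differed between wild type and knockout for 32 of the genes named here (limma, adjusted p under 0.05), given as the wild-type minus the knockout effect in log2. It was larger in wild type for S100g (3.83), Ctps2 (3.28), Rnase2a (2.72), Mmp9 (2.43), Mmp13 (2.38), Cldn4 (2.05), Alox15 (2.04), Fcer1a (2.03), Egr1 (1.83), Ms4a2 (1.65), Mcpt4 (1.63), Pnliprp2 (1.53), Siglecf (1.48), Ccl24 (1.47), Ch25h (1.44), Cpa3 (1.36) and Clca2 (1.30). Smaller differences of that direction were those of Cd55 (0.66), Cyp51 (0.64), Tlr6 (0.53), Krt18 (0.30) and Fcgbp (0.29). The sign was negative for Oas2 (-4.06), Usp18 (-3.35), Ifi44l (-3.21), Oas3 (-3.00), Ifit3 (-2.97) and Oasl2 (-2.92), for Atrnl1 (-1.67) and Slc30a10 (-1.43), which fell in wild type, and for Sgk1 (-0.42) and Hnf4a (-0.15). No direction was reversed by the alternatives tried, but only 6 of the 32 passed under every one of them. Without a single array the calls of Fcgbp (9 of the 11 arrays, adjusted p = 0.0541 to 0.0861), Hnf4a (8 arrays, adjusted p = 0.0504 to 0.0776), Slc30a10 (8 arrays, adjusted p = 0.0583 to 0.0734), Pnliprp2 (7 arrays, adjusted p = 0.0622 to 0.0922) and Siglecf (6 arrays, adjusted p = 0.053 to 0.0685) were lost.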

How the results depend on the processing

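TNBS raised 1858 genes and lowered 1140, by at least 1 for 447 and 39, and the difference from knockout passed for 363. Leaving out 1 array at a time gave 1454 to 1887 rises, 796 to 1108 falls, 411 to 478 rises and 33 to 49 falls of at least 1, and 238 to 443 differences. Quantile normalization gave 2353 falls, 72 of at least 1. Centring on the median over genes gave 10190 falls, 78 of at least 1, and 547 differences. The squamous covariate left 793 rises, 275 of at least 1, and 374 falls. Of the alternatives chosen after seeing the data, centring over all probe sets gave 2018 falls. Leaving out TNBS arrays 3 and 6 gave 622 falls and 226 differences, and leaving out TNBS arrays 3, 4 and 6 gave 1008 rises, 476 falls and 105 differences. Without untreated arrays 4 and 5 there were 202 differences, and without untreated arrays 1 and 2 there were 1146 rises and 576 falls. The other counts moved by less than 1.5 times. The cause of these shifts was not tested, beyond the smaller number of arrays in the fits that leave arrays out.

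With the replicate number as a block 1575 genes rose, 877 fell and the difference passed for 172. Same-numbered arrays deviated together with correlations of -0.149 to 0.299 in 5 pairs, 1 of them over 0.1, and 1 array correlated best with its own number. Whether same-numbered arrays share a batch or a pairing is not stated in the labels and was not tested.

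No called gene named here reversed under any alternative. A wider set of 202 called genes holds the 181 named here and others that met the naming rule but are not named. Of these 202, 67 lost the call under the squamous covariate, 49 without TNBS arrays 3, 4 and 6, and 3 to 17 without 1 array. With values below log2 5 set to 5, 25 lost it. Among them were Alox15, Alox5, Avil, Ccl22, Ccl24, Ccr7, Ciart, Cldn4, Cxcl5, Hdc, Il1r2, Kcna1, Lancl3, Lgals7, Mmp13, Naaladl1, Stfa3, Tlr6, Tlr7 and Tlr13. No background correction could be run on processed values. The 11 wild-type arrays alone gave 1564 rises and 888 falls and kept 74.1% of all wild-type calls. Of the 202 genes, 18 lost the call there. The difference from knockout cannot be tested on these arrays. Genes near the floor have no measurable fall.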
